A study of Homo sapiens with 372 samples.

Results

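The comparison described here is between A2780 cells after 16 h and after 2 h of celecoxib. A2780 is a human line derived from an ovarian cancer and long established in culture, and celecoxib, an inhibitor of cyclooxygenases, was given at 75 µM in both groups. Cells were taken for each time by the time named in their labels, and after quality control the deposited table held 61 cells with 16 h and 63 cells with 2 h of celecoxib, that is 124 of the 338 cells of the study. The 46 untreated control cells are given beside them, and both times are set against these same control cells. A further group of 59 cells that had 75 µM celecoxib together with 5 nM paclitaxel, a drug that stabilizes microtubules, for 16 h is used once, for single genes. RNA of single cells was copied with Smart-seq2 on the Fluidigm C1 system, which captures single cells on a chip. Each time was captured in 1 C1 run and no replicate culture is named, so each time counts as 1 sample, the C1 run and the time cannot be told apart, and no test or p-value was made from the cells. The SD values below are spreads over cells. Of the 11 marker genes listed for the line, only VIM and KRT18 were among the genes with values, and the other 9 were not. VIM was detected in 79.4% of the cells at 2 h and 72.1% at 16 h, and KRT18 in 36.5% and 26.2%.

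A cell that is short of amino acids, has unfolded protein in its endoplasmic reticulum or has damaged mitochondria slows translation by phosphorylating the initiation factor eIF2. Translation of the transcription factor ATF4 rises under this integrated stress response, and ATF4 with its partner CHOP (gene DDIT3) then raises genes of amino acid synthesis and uptake, and later genes of feedback and cell death such as TRIB3. Celecoxib at high doses is known to trigger such a response apart from its action on cyclooxygenases. The comparison of a late with an early time asks which of these genes come early and stay, and which come later.

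The RNA content per cell was lower at the later time. Values are given on the deposited scale, the E-value. It equals log2(N/10 + 1), and N stands for the TPM of a gene (its length-corrected share of the transcripts) normalized to a spike-in RNA that was added in equal amount to each well. The sum of N over all 9664 genes listed stands for the RNA content of a cell relative to the spike-in. On the log2 scale relative to the 2 h median, the total ran from -0.71 to 1.85 over the 63 cells at 2 h, and from -1.63 to 0.04 with a median of -0.76 over the 61 cells at 16 h. The median total at 2 h was thus 1.70 times that at 16 h. Of the 61 cells at 16 h, 58 lay under the 2 h median and 31 lay under the lowest cell at 2 h, while none of the 63 cells at 2 h lay under the 16 h median. The control cells had a median of 0.76. Genes detected (E above 0) did not follow the total, with a median of 6329 per cell (5021 to 7084) at 16 h and 6158 (4927 to 8156) at 2 h. The gap between the times differed along the chip. Its median was -1.18 on the log2 scale in C1 wells 1 to 48 and -0.36 in wells 49 to 96. The 2 h cells had a median of 0.36 in the first set of wells and -0.17 in the second, and the 16 h cells had -0.83 and -0.54.

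**Figure D1:**
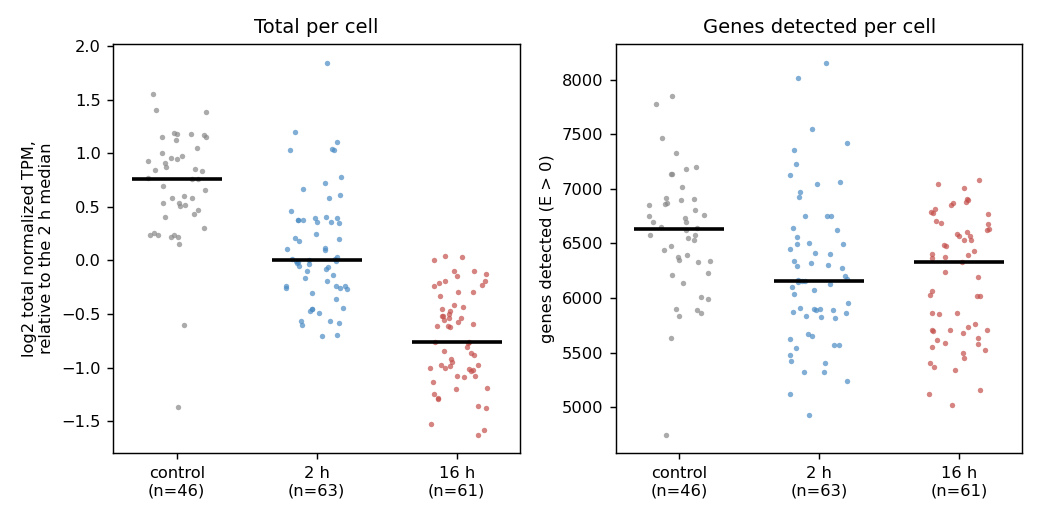
Left, total normalized TPM per cell on the log2 scale relative to the 2 h median. Right, genes detected per cell. Each point is a cell of the control, the 2 h or the 16 h group and each bar is the group's median. The totals step down from 0.76 to 0 to -0.76, while the genes detected at 2 h and 16 h share most of their range.

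Because of this gap, each gene is described on a pair of scales. On the deposited scale a gene is measured against the spike-in, and on the same-total scale N in every cell was first rescaled to 1 common total, so that a difference is a change in the gene's share of the cell's RNA. A gene was counted as higher or lower at 16 h when its mean E differed by more than log2 of 1.5, among the 9142 genes that over 30% of the cells of either time detected. On the deposited scale 51 genes (0.558%) were higher and 1868 (20.4%) were lower at 16 h. On the same-total scale 761 genes (8.32%) were higher and 377 (4.12%) were lower. Higher genes made up 2.66% of the genes past the limit on the deposited scale and 66.9% of those on the same-total scale. The median difference over all genes was -0.23 on the deposited scale and 0.06 on the same-total scale. All 51 genes that were higher on the deposited scale were also higher on the same-total scale. All 377 genes that were lower on the same-total scale were also lower on the deposited scale. These shares varied with level, taken as the mean same-total E over both times. Up to a level of 1, 1.21% of protein-coding genes were higher and 0.539% were lower by share of RNA. From 3 to 4 these were 19.9% and 8.48%, and over 6 they were 2.64% and 19.6%. The list shares below are to be read beside these as well. Where a sentence below names no scale, its counts, differences and calls are by share of RNA, that is on the same-total scale. They are to be read beside the 8.32% higher, the 4.12% lower and the median of 0.06 over all genes. Those against the spike-in are to be read beside the 0.558% higher, the 20.4% lower and the median of -0.23. Of the 125 named genes past the limit by share of RNA, 91 passed it the same way in both sets of wells, 16 in wells 1 to 48 alone and 18 in wells 49 to 96 alone.

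**Figure D2:**
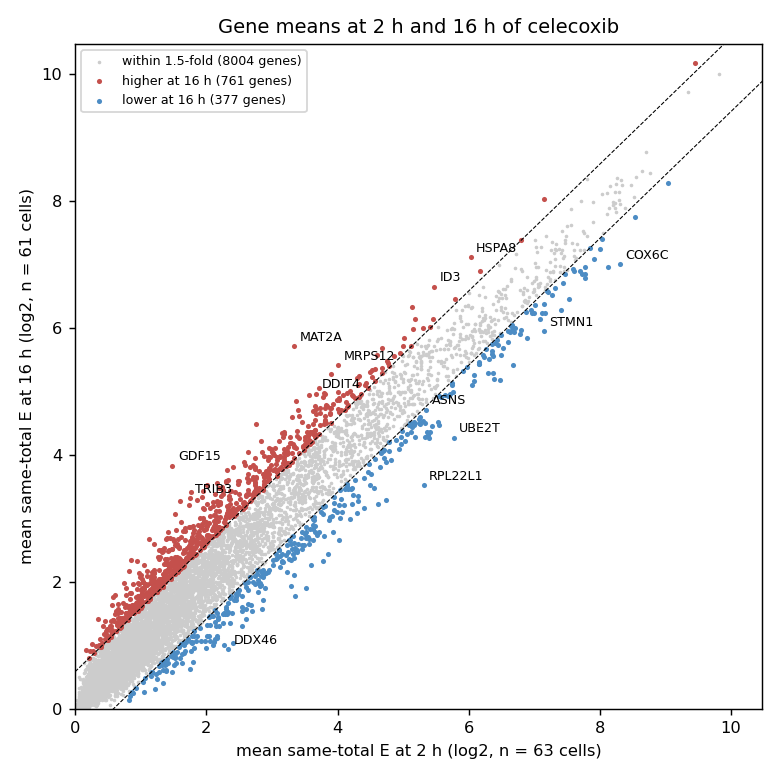
Mean same-total E at 16 h (61 cells) against that at 2 h (63 cells) for the 9142 genes counted, on log2 axes. Dashed lines mark a difference of log2 of 1.5, and the 761 genes above and 377 genes below them are coloured. MAT2A and GDF15 lie farthest above the lines and RPL22L1 farthest below among the labelled genes.

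MAT2A had the largest rise by share of RNA. It encodes the catalytic subunit of the methionine adenosyltransferase that makes S-adenosylmethionine (SAM), the methyl donor of the cell, in tissues other than adult liver. On the same-total scale its values at 2 h ran from 0 to 5.28 with a median of 3.70 over 63 cells, and at 16 h from 3.35 to 7.04 with a median of 5.89 over 61 cells. No cell at 2 h reached the 16 h median, and 48 of the 61 cells at 16 h lay above the highest cell at 2 h. Its mean was 5.72 ± 0.74 (SD, n = 61 cells) at 16 h against 3.34 ± 1.27 (SD, n = 63 cells) at 2 h, a difference of 2.38, and it was 2.87 in control cells. The mean linear value was 4.58 times that at 2 h by share of RNA and 2.47 times against the spike-in. In wells 1 to 48 the same-total difference was 1.94 and in wells 49 to 96 it was 2.76. MAT2B, which encodes the regulatory subunit and was chosen after its values were seen, was 0.69 higher.

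The MAT2A gene lies at chr2:85539168-85545281 on the plus strand of hg38, and its canonical transcript has 9 exons and 2817 bases. Its 3′ untranslated region is known to fold into hairpins that the m6A methyltransferase METTL16 binds, and through which MAT2A RNA is adjusted to the level of SAM. The sites are shown because the gene with the largest rise carries a known SAM-responsive element. The sense strand was searched for TACAGAGAA and TACAGAAAA, and the 6 matches, all in the 3′ untranslated region, are in capitals between their flanks.
MAT2A site 1 (chr2:85543802-85543830): tggcgtaggcTACAGAGAAgccttcaagc
MAT2A site 2 (chr2:85544589-85544617): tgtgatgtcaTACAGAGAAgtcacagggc
MAT2A site 3 (chr2:85544774-85544802): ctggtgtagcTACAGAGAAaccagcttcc
MAT2A site 4 (chr2:85544889-85544917): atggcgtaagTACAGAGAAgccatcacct
MAT2A site 5 (chr2:85545004-85545032): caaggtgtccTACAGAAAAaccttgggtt
MAT2A site 6 (chr2:85545112-85545140): gctggtgtggTACAGAGAAgccagcttgt
At least 1 such match is in the canonical transcripts of 896 of 9632 listed genes (9.30%), and in 117 of the 2100 transcripts of similar length (5.57%). MAT2A was the transcript among them with 6 matches, and the next highest number was 4. A match is a description of the letters and not of binding. METTL16 itself differed by 0.13 between the times, which does not pass the limit.

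The ATF4 and CHOP stress response was higher by share of RNA at 16 h in part of its genes. Of the 23 genes counted from this list, 6 (26.1%) were higher and none was lower, beside 8.32% higher over all genes, and the list's median difference was 0.38 beside 0.06. Against the spike-in 2 of the 23 were higher and 1 was lower, with a median of -0.10. The 6 genes were GDF15, TRIB3, DDIT4, CEBPG and, named after their values were seen, NUPR1 (0.69) and GADD45B (0.66). The 23 genes together took a median of 0.25% of the cell's total at 2 h and 0.41% at 16 h, and 49 of 61 cells at 16 h lay above the 2 h median.

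GDF15, a secreted stress cytokine, had the next largest rise, of 2.35. It was detected in 25 of 63 cells at 2 h (39.7%, exact Clopper-Pearson 95% interval 27.6 to 52.8%) and in 56 of 61 cells at 16 h (91.8%, 81.9 to 97.3%), beside 8 of 46 control cells. These intervals cover counting error only. On the same-total scale its median was 0 at 2 h (highest cell 6.60) and 3.89 at 16 h (highest cell 8.08), and 15 of the cells at 2 h reached above the 16 h median, so the groups overlap. Its mean was 3.83 ± 2.30 (SD, n = 61 cells) against 1.48 ± 2.14 (SD, n = 63 cells), and it was also the largest rise against the spike-in, at 1.63. The well sets differed here, with 1.41 in wells 1 to 48 and 3.19 in wells 49 to 96.

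TRIB3, a pseudokinase that feeds back on ATF4, ran from 0 to 5.08 at 2 h with a median of 1.46, and from 0 to 6.56 at 16 h with a median of 3.78. At 16 h 19 of 61 cells lay above the highest cell at 2 h. DDIT4, which restrains mTORC1, had a median of 4.18 at 2 h and 5.17 at 16 h beside 0.07 in control cells, so that most of its distance from control was already present at 2 h. Its difference between the times was 1.29. CEBPG, a dimer partner of ATF4, was 0.95 higher, and 19 of 61 cells exceeded every cell at 2 h.

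The regulators at the head of this response did not pass the limit between the times by share of RNA. ATF4 had a mean of 5.09 ± 1.20 (SD, n = 63 cells) at 2 h and 5.17 ± 1.10 (SD, n = 61 cells) at 16 h, and DDIT3 had 4.54 ± 1.76 and 4.80 ± 2.14 in the same order, beside 3.99 and 2.58 in control cells. The differences were 0.09 and 0.26. Against the spike-in ATF4 was lower at 16 h, by -0.71, and DDIT3 differed by -0.44, which does not pass the limit. CHAC1, a glutathione-degrading ATF4 target named after its values were seen, had 2.54 at 2 h and 2.49 at 16 h beside 0.49 in control cells.

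The amino acid and one-carbon synthesis enzymes split in direction by share of RNA. Of 19 genes counted, 3 were higher and 3 were lower, with a median of -0.02. Against the spike-in none was higher and 9 were lower (47.4%, beside 20.4% over all genes), with a median of -0.53. ASNS, which makes asparagine, fell from a mean of 5.35 ± 1.03 (SD, n = 63 cells) to 4.71 ± 1.35 (SD, n = 61 cells), a difference of -0.64, but stayed above the 2.50 of control cells. PHGDH, the entry to serine synthesis, was lower by a similar amount (-0.72), at 4.34 against 5.06, with control cells at 3.32. GOT1, an aspartate aminotransferase, was 0.91 higher. Among 12 amino acid transporters SLC3A2, the heavy chain of several exchangers, was the gene past the limit by share of RNA, at 0.82. Of 23 cytosolic aminoacyl-tRNA synthetases 5 were higher, among them SARS (0.84) and FARSA (0.76), and 2 were lower, VARS (-0.93) and QARS (-0.89). Against the spike-in none of the 23 was higher and 11 were lower. FARSA had been lower at 2 h (2.60) than in control cells (3.81), whereas SARS had been higher (5.14 beside 3.94).

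**Figure D3:**
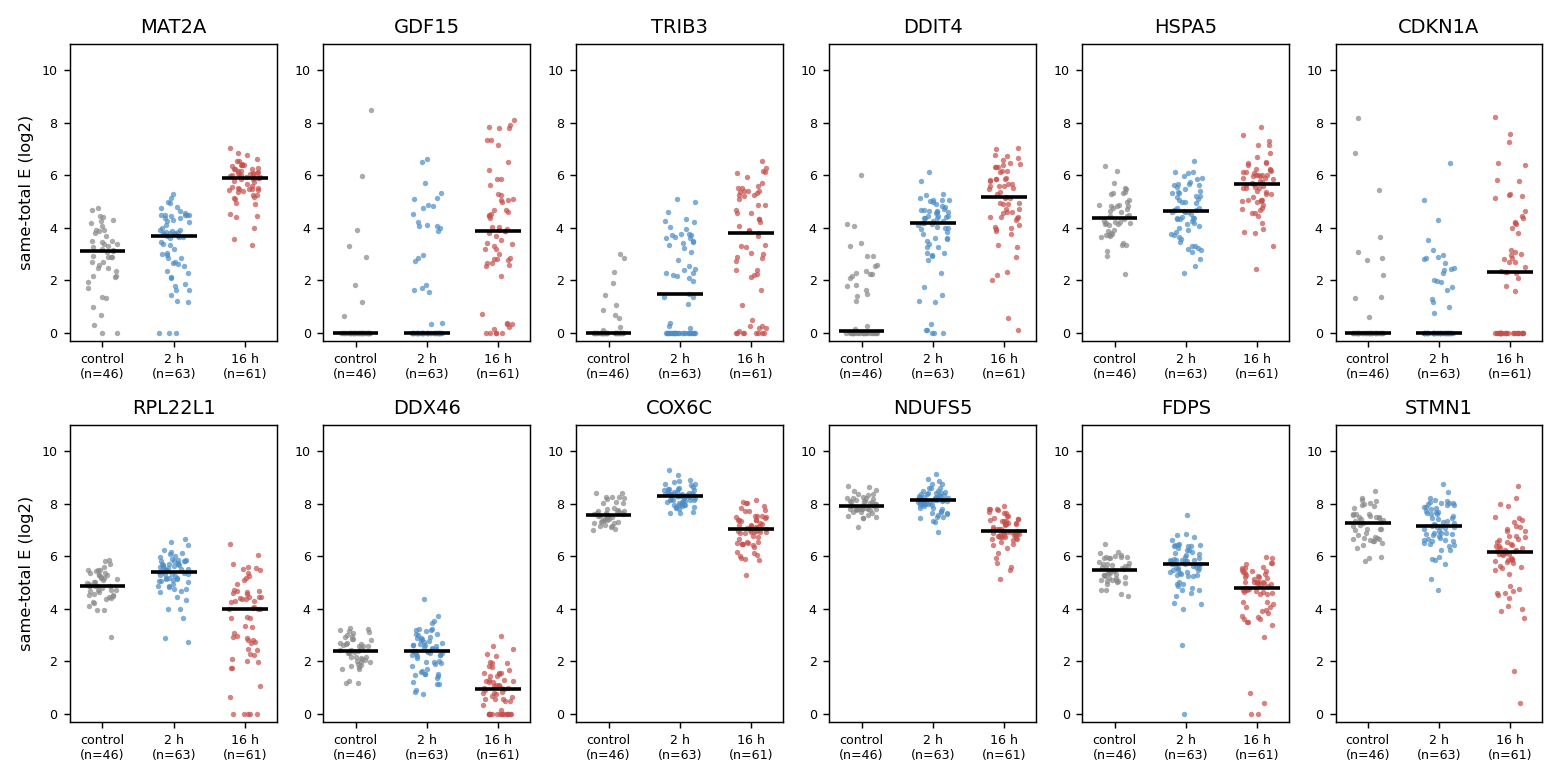
Same-total E on the log2 scale in each control, 2 h and 16 h cell for 6 genes that were higher and 6 that were lower at 16 h than at 2 h. Points are cells and bars are medians. At 16 h MAT2A has 48 of 61 cells above every 2 h cell and COX6C has 52 of 61 below every 2 h cell, while GDF15, TRIB3 and CDKN1A keep cells at 0 in every group.

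Of the endoplasmic reticulum chaperones and XBP1 and ATF6 targets, 5 of 39 (12.8%) were higher by share of RNA, a share not far from the 8.32% over all genes, and none was lower, with a median of 0.22 beside 0.06. HSPA5 (BiP), the main chaperone of the compartment, ran from 2.28 to 6.53 at 2 h (median 4.62) and from 2.41 to 7.82 at 16 h (median 5.65). Its mean difference was 0.97, and 52 of 61 cells at 16 h lay above the 2 h median. SSR1, a subunit of the translocon-associated complex, DNAJB9, a co-chaperone, and HERPUD1, which serves degradation from the compartment, were higher by 0.75, 0.74 and 0.63. PDIA6, a disulfide isomerase named after its values were seen, was 0.61 higher. Against the spike-in none of the 39 was higher and 5 were lower (12.8%, beside 20.4% over all genes), and HSPA5 differed by 0.17.

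A minority of the promoters of these lists hold the response elements known for the pathways. A few are shown because they group genes that moved with genes that did not. RefSeq promoters on GRCh38.p14, from 250 bases before to 50 bases after the start, were searched on both strands for the ATF4-type element TGATGCAA and the endoplasmic reticulum stress element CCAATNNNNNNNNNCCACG. The letters of each match are in capitals, and some matches lie on the opposite strand.
CEBPG (chr19:33374056-33374093): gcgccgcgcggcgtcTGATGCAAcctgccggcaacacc
GOT1 (chr10:99430800-99430837): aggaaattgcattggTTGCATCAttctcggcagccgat
HERPUD1 (chr16:56931951-56931988): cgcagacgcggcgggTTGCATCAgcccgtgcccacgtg
CHAC1 (chr15:40953247-40953284): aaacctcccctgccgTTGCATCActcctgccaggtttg
HSPA5 (chr9:125241376-125241424): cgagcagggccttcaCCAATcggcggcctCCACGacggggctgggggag
PDIA6 (chr2:10812838-10812886): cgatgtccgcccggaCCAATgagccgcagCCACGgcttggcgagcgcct
XBP1 (chr22:28800588-28800636): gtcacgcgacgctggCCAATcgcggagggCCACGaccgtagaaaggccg
CEBPG, GOT1, HERPUD1, HSPA5 and PDIA6 were higher at 16 h, and CHAC1 and XBP1 did not pass the limit (-0.05 and 0.34). The genes shown are not a fair sample, since of the list genes with a match that are not shown all but IARS stayed within the limit. Over all genes with a sequence, the first element was in 8 of 655 higher genes (1.22%). It was in 1 of 311 lower genes (0.322%) and 51 of 6588 genes within the limit (0.774%). A looser form, TGATGNAA, was also searched and had near equal shares. It was in 17 higher genes (2.60%), 8 lower genes (2.57%) and 168 genes within the limit (2.55%). The first element is in 304 of 35115 promoters (0.866%), and in 3 of the 17 stress response genes and 6 of the 19 tRNA synthetase genes that had a promoter sequence. Among those 6 synthetases IARS was the gene past the limit, at 0.68. The second element is in 27 of 35115 promoters (0.0769%) and in 8 of the 36 endoplasmic reticulum genes that had a sequence, of which HSPA5 and PDIA6 were the ones past the limit.

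Immediate-early and growth factor-responsive genes switch on within minutes to hours of a stimulus, and part of them took a larger share of the RNA at 16 h. Of 31 genes counted, 10 (32.3%, beside 8.32% over all genes) were higher by share of RNA than at 2 h and none was lower, with a median of 0.35. Against the spike-in 1 was higher and 1 was lower, with a median of 0.00073. The same-total medians against control were -0.14 at 2 h and 0.19 at 16 h. ID1, ID2 and ID3, inhibitors of helix-loop-helix factors, were higher by 1.40, 1.39 and 1.17, and FOS by 1.20. ID1 ran from 0 to 6.01 at 2 h (median 3.00) and from 0 to 7.21 at 16 h (median 4.18), with a mean of 3.36 in control cells between the other two means of 2.64 and 4.05. FOS was the more scattered gene, from 0 in both groups to 6.67 at 2 h and 7.31 at 16 h, with medians of 4.15 and 5.28. MYC differed by 0.35 and CCND1 by 0.08, which do not pass the limit.

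Targets of p53 were higher by share of RNA in 5 of 26 genes (19.2%, beside 8.32% over all genes) and lower in none, with a median of 0.27, and GDF15 is also in this list. Against the spike-in 2 were higher and 2 were lower, with a median of -0.02. CDKN1A, the cyclin-dependent kinase inhibitor p21, was detected in 23 of 63 cells at 2 h (36.5%, with an exact interval of 24.7 to 49.6%) and in 35 of 61 cells at 16 h (57.4%, with 44.1 to 70.0%). Its mean was 2.34 ± 2.42 (SD, n = 61 cells) at 16 h and 0.95 ± 1.48 (SD, n = 63 cells) at 2 h, so the gain was carried by cells that detect the gene, and 3 of them exceeded every cell at 2 h. MDM2, which degrades p53, was 1.00 higher and TRIAP1, an inhibitor of apoptosis, was 0.65 higher. Both depended on the wells, with 1.77 for MDM2 in wells 1 to 48 and 0.11 in wells 49 to 96, and with 0.12 and 1.18 for TRIAP1. CDKN1A was among the 6 largest rises against the spike-in (0.95), with GDF15, MAT2A, PIGY (1.09), HYAL2 (0.96) and UBE2D4 (0.95).

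Many of the largest rises by share of RNA lay under the control mean at 2 h and above it at 16 h. CHCHD4, which carries the oxidative import of proteins into mitochondria, had means of 2.94 in control cells, 1.77 at 2 h and 3.42 at 16 h. CDK9, the kinase that releases paused RNA polymerase II, had 2.99, 2.01 and 3.53 in the same order. HYAL2, a hyaluronidase, had 2.55, 1.60 and 3.28, FAM89B had 2.43, 1.52 and 3.07, and UBE2D4, a ubiquitin-conjugating enzyme, had 1.57, 1.13 and 2.67. KEAP1, the sensor that holds NRF2 down, had 2.27, 1.73 and 3.21. In each of these genes at least 47 of the 61 cells at 16 h lay above the 2 h median, yet the ranges overlap, with between 4 and 12 cells above the highest cell at 2 h.

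Some of these genes share exons with a neighbour on the same strand, so that their reads may be divided between both. OVCA2 (2.75 at 2 h, 4.48 at 16 h) shares exons with DPH1, which differed by -0.11, and HYAL2 with TUSC2, which differed by -0.24. PIGY (0.85 and 2.35) overlaps PYURF, which was 0.91 higher, and FAM89B overlaps SSSCA1, which was 1.31 higher. PCLAF, described with the falls, overlaps CTD-2116N17.1, which was lower by -1.09. In all, 22 of the named genes share exon sequence with another protein-coding gene on the same strand and 47 on either strand, and Smart-seq2 does not mark the strand. MAT2A meets GGCX on the opposite strand, which differed by -0.34. These neighbours were named after their values were seen.

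Mitochondrial ribosomal proteins, nucleolar factors and cytosolic heat shock proteins had list medians under control at 2 h and nearer to control at 16 h by share of RNA. Of 76 mitochondrial ribosomal proteins 15 (19.7%, beside 8.32% over all genes) were higher and 2 were lower on this scale, with a median of 0.28 between the times and of -0.31 at 2 h and -0.11 at 16 h against control. Of protein-coding genes with a level of 2 to 3, 3 to 4 and 4 to 6, 16.7%, 19.9% and 12.7% were higher by share of RNA. The 19.7% therefore does not set the list apart from genes of these levels. The nucleolar and heat shock shares below are to be read in the same way. Against the spike-in the direction was the opposite, with 1 higher, 29 lower (38.2%, beside 20.4% over all genes) and a median of -0.44. MRPS12 ran from 0.46 to 5.84 at 2 h (median 4.04) and from 1.74 to 7.55 at 16 h (median 5.45), and 58 of 61 cells lay above the 2 h median. MRPL43, MRPL36 and MRPS2 were higher by 1.19, 1.01 and 1.00. The whole list took 1.73% of the total in the median cell at 2 h and 2.05% at 16 h beside 2.00% in control cells, and 25 cells at 16 h lay above every cell at 2 h. The nucleolar medians against control were -0.32 at 2 h and -0.08 at 16 h, and the heat shock medians were -0.44 and -0.19. Of 65 nucleolar ribosome biogenesis factors 12 (18.5%) were higher, among them the rRNA and ribosomal assembly factors NOP2 (0.99), BYSL (0.99) and IMP4 (0.79), and 1, the rRNA methyltransferase FBL, was lower (-0.88). Of 24 heat shock genes 4 (16.7%) were higher. HSPA8, the constitutive cytosolic HSP70, had means of 7.25 in control cells, 6.03 at 2 h and 7.12 at 16 h. The co-chaperones DNAJB6 (0.94), DNAJB1 (0.68) and DNAJA1 (0.60) were the other genes. Against the spike-in none of the nucleolar or heat shock genes was higher. On that scale 9 (13.8%) and 7 (29.2%) were lower, beside 20.4% over all genes. The initiation factor EIF5 had 6.60, 5.14 and 6.34 in that order and was 1.20 higher.

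Cytosolic ribosomal proteins, nuclear-encoded respiratory chain subunits and proteasome subunits made up a smaller share of the RNA at 16 h. None of the 79 cytosolic ribosomal proteins was higher and 25 (31.6%) were lower on the same-total scale, beside 4.12% over all genes, with a median of -0.46. Against the spike-in all 79 were lower, with a median of -1.27. Abundant genes, with the members of these lists among them, were lower more often. Shares by level without these lists were not taken. Of protein-coding genes with a level of 4 to 6, 10.9% were lower by share of RNA and 61.3% against the spike-in. Over 6 these were 19.6% and 88.7%. The respiratory chain and proteasome lists are to be read beside the same shares. The cytosolic ribosomal proteins took 13.9% of the total in the median cell at 2 h (6.55 to 18.4%) and 10.6% at 16 h (4.44 to 16.5%). Control cells had 11.9%, and 55 of 61 cells at 16 h lay under the 2 h median. RPS21 had 7.40 ± 0.44 (SD, n = 63 cells) at 2 h and 6.29 ± 0.76 (SD, n = 61 cells) at 16 h. RPL12, RPLP2 and RPL17 were lower by -1.08, -0.94 and -0.91. Ribosomal protein genes have many processed copies in the genome, and reads may be divided among these.

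Among respiratory chain subunits encoded in the nucleus, the genes with the largest falls, COX6C and NDUFS5, had little overlap between the times. Genes with as little overlap were not counted over all genes. Of 37 complex I subunits 8 (21.6%) were lower and none was higher, with a median of -0.32, and of 40 subunits of complexes II to V 12 (30.0%) were lower and 2 were higher, with a median of -0.35. Against the spike-in 33 (89.2%) and 36 (90.0%) were lower. Of protein-coding genes with a level of 4 to 6, 10.9% were lower by share of RNA and 61.3% against the spike-in. Over a level of 6 these were 19.6% and 88.7%. COX6C, a subunit of cytochrome c oxidase, ran from 7.65 to 9.29 at 2 h with a median of 8.31, and from 5.30 to 8.16 at 16 h with a median of 7.05. All 61 cells at 16 h lay under the 2 h median and 52 lay under the lowest cell at 2 h. NDUFS5, of complex I, ran from 6.95 to 9.14 at 2 h and from 5.13 to 7.90 at 16 h, again with all 61 cells under the 2 h median and 30 under the lowest cell. The differences were -1.30 and -1.16 by share of RNA and -2.12 and -1.98 against the spike-in. NDUFB1, NDUFAB1 and NDUFA1 of complex I differed by -0.87, -0.82 and -0.69, and UQCRB of complex III and COX4I1 of complex IV by -0.99 and -0.86. SDHD, the membrane anchor of complex II, was 0.83 higher. COX6C (7.64 in control cells) and NDUFB1 (6.02) had been higher at 2 h, at 8.31 and 7.11, than in control cells, so that at 16 h COX6C lay under and NDUFB1 near the control level. The complex II to V genes took 5.18% of the total in the median cell at 2 h and 4.00% at 16 h, and no cell at 16 h lay above the 2 h median.

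Proteasome subunits were lower in 10 of 35 genes (28.6%) and were higher in 1, with a median of -0.36. They were already under control at 2 h (median -0.56) and lay lower at 16 h (-0.79). PSMB3 had a median of 7.24 at 2 h and 6.32 at 16 h, PSMB4 was lower by -1.05 and PSMA3 by -0.83. Against the spike-in 31 of the 35 were lower. The exception by share of RNA was PSMB10, a subunit of the immunoproteasome, which was 1.18 higher. The list took 2.96% of the total in the median control cell, 2.15% at 2 h and 1.72% at 16 h, and 27 of 61 cells at 16 h lay under every cell at 2 h.

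The largest falls of single genes were held by genes that stood near the control level at 2 h. RPL22L1, a paralog of a ribosomal protein, ran from 2.73 to 6.68 at 2 h (median 5.39) and from 0 to 6.46 at 16 h (median 4.01), beside a mean of 4.89 in control cells. Its difference was -1.79 by share of RNA and -2.41 against the spike-in, the largest fall on the first of these scales. DDX46, a helicase of the U2 snRNP, had a tight distribution at 2 h (0.77 to 4.37, median 2.39) and was lower in 58 of 61 cells at 16 h (0 to 2.98, median 0.95), 26 of them under every cell at 2 h. It was detected in all 63 cells at 2 h and in 45 of 61 at 16 h (73.8%, exact interval 60.9 to 84.2%). CAPNS1, the small calpain subunit, PIH1D1, a co-chaperone subunit, GSTO1, a glutathione transferase, and CDKN2AIPNL differed by -1.45, -1.41, -1.40 and -1.37. B9D1, a protein of the ciliary transition zone, and NAA60, an acetyltransferase, were lower by -1.56 and -1.36. C7orf55 (-1.36) shares exons with LUC7L2, which differed by 0.16.

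Several of these genes serve DNA replication and repair. PCLAF, which binds the PCNA clamp, had a median of 4.07 at 2 h and 1.74 at 16 h, UBE2T, which ubiquitinates the Fanconi anaemia complex, had 6.06 and 4.97, and RPA3, of the single-strand binding complex, had 4.92 and 3.80. Of 41 S phase genes 10 (24.4%) were lower and of 53 G2 and M phase genes 12 (22.6%) were lower, and none of either was higher. The medians were -0.37 and -0.29. HELLS (-1.19), RRM2 (-1.07), CENPU (-1.04) and MCM6 (-0.89) had the largest S phase differences, and AURKB (-1.23), CKS2 (-0.99), NUSAP1 (-0.85) and SMC4 (-0.84) the largest of the G2 and M genes. Against the spike-in 26 S phase and 29 G2 and M genes were lower. MKI67 (-0.19) and TOP2A (-0.39), markers of cycling cells, did not pass the limit by share of RNA, and against the spike-in TOP2A was lower (-0.78) and MKI67 was not (-0.44). In wells 1 to 48 the medians were -0.52 and -0.53, and in wells 49 to 96 they were -0.11 and -0.03. Both lists moved with the total of the cell. The share of the total taken by S phase genes had a Pearson's r of 0.34 with the log2 total over the 63 cells at 2 h and 0.32 over the 61 cells at 16 h, and that of G2 and M genes 0.35 and 0.31. The points share their total as the denominator. Among the 23 cells at 16 h and 19 cells at 2 h whose totals lay in a common range, a choice made after the data were seen, both medians turned positive, at 0.39 and 0.72. The part of the total in these differences was not tested further. The ribosomal protein median was -0.48 and the stress response median 0.42 in the same cells, beside 0.195 over all genes there. Of the 41 list medians, 25 moved in these cells and 16 stayed the same.

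**Figure D4:**
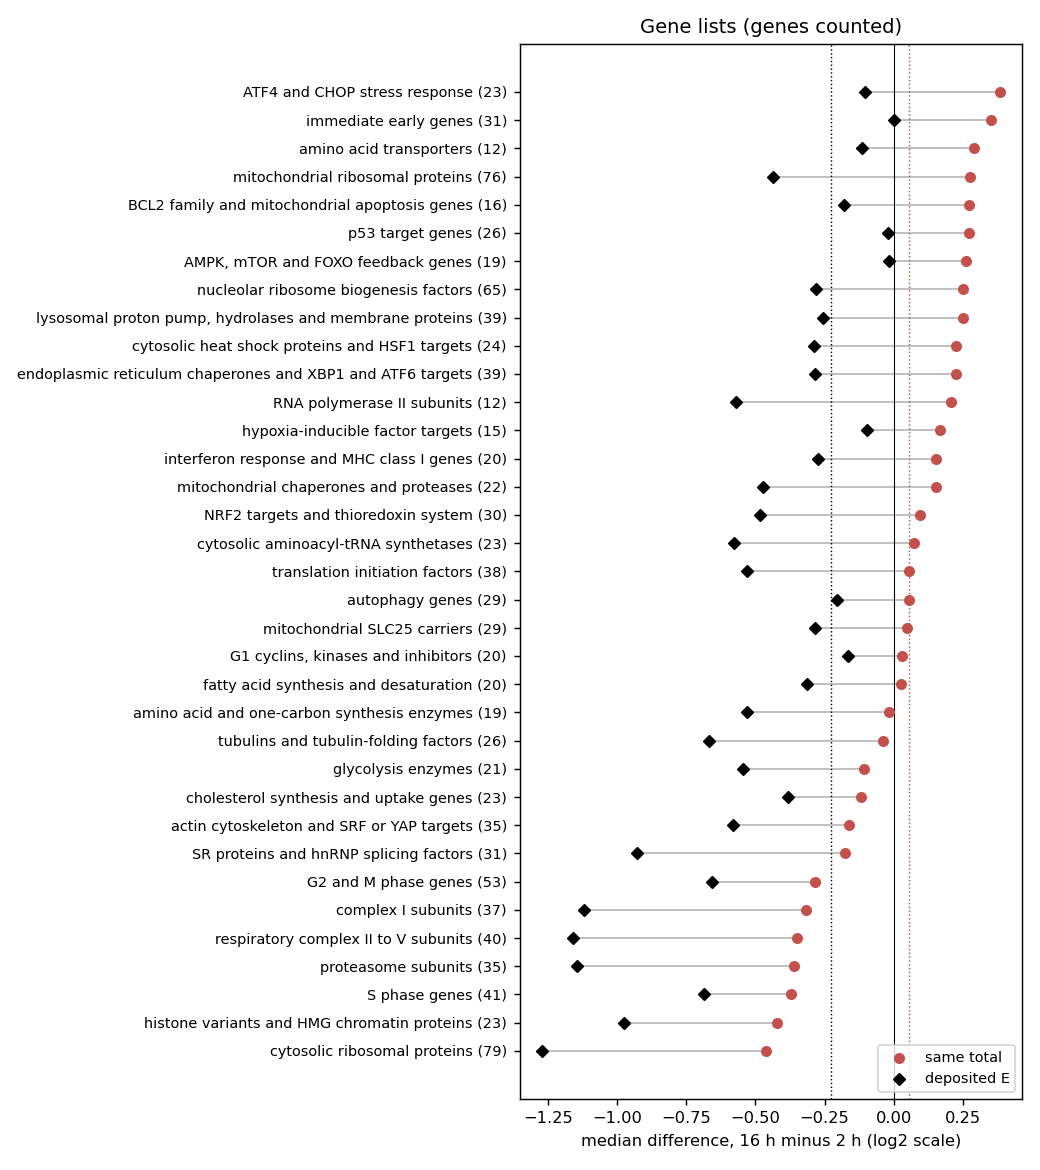
Median difference, 16 h minus 2 h, over the genes counted in each list of at least 10, on the log2 scale. Circles are the same-total scale and diamonds the deposited scale, and dotted lines are the medians over all 9142 genes (0.06 and -0.23). The lists run from 0.38 for the stress response to -0.46 for cytosolic ribosomal proteins on the same-total scale, and each diamond lies to the left of its circle.

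Lipid and redox genes past the limit by share of RNA went both ways. Of 23 cholesterol genes 3 were lower and 1 was higher, and against the spike-in 8 were lower. FDPS, which makes farnesyl diphosphate, had a median of 5.71 at 2 h and 4.80 at 16 h, with 56 of 61 cells under the 2 h median, and IDI1, the isopentenyl diphosphate isomerase, was lower by -1.03. ACAT2 was lower by -0.70, but it was 0.28 higher in wells 49 to 96. NSDHL was 0.62 higher. Of 20 fatty acid genes OXSM was higher (1.18) and ACLY, which makes cytosolic acetyl-CoA, was lower (-0.77). Among NRF2 targets and the thioredoxin system 5 of 30 (16.7%) were higher and 6 (20.0%) were lower by share of RNA, and 1 was higher and 13 were lower against the spike-in. The list took 2.74% of the total in the median cell at 2 h and 3.06% at 16 h. MT1X, a metallothionein, was detected in 46 of 63 cells at 2 h and 23 of 61 at 16 h and was lower by -1.28. TXNIP, which binds thioredoxin, was 1.02 higher, at 2.89 against 1.88, with control cells at 0.51. The sulfiredoxin SRXN1 was 0.88 higher.

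STMN1, which destabilizes microtubules, was lower by -1.20 (7.15 ± 0.80 at 2 h, SD, n = 63 cells, and 5.95 ± 1.41 at 16 h, SD, n = 61 cells). Of 26 tubulins and folding factors 5 were lower and 2 were higher by share of RNA, and 15 were lower against the spike-in. The tubulin-folding cofactors split by share of RNA, with TBCA lower by -1.04 and under every cell at 2 h in 30 of 61 cells, and TBCC and TBCE higher by 1.14 and 0.74. Histone variants and HMG chromatin proteins were lower in 7 of 23 genes (30.4%) and higher in 2. HMGB3, HMGN3 and HMGB2 were lower by -0.88, -0.82 and -0.76 and HMGN4 was 1.27 higher. Among splicing factors HNRNPDL (-1.08), HNRNPA3 (-0.80) and TRA2A (-0.69) were lower and SRSF4 (0.98) was higher, with 5 of 31 lower and 2 higher. The remaining initiation factors named were EIF3H (-0.96), EIF2B2 (0.94) and EIF4G2 (0.69).

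Lysosomal genes went both ways by share of RNA, with 8 of 39 (20.5%, beside 8.32% over all genes) higher and 5 (12.8%, beside 4.12%) lower. Against the spike-in none was higher and 8 were lower (20.5%, beside 20.4% over all genes), with a median of -0.26. NEU1 (1.01) and TPP1 (0.88), hydrolases of the lumen, were higher, and ATP6V1E1 (-0.90) and ATP6V1H (-0.87), subunits of the proton pump, were lower. In autophagy 1 of 29 genes (3.45%) was lower, ATG3 (-0.63), and 1 was higher, VMP1 (0.62). In glycolysis 1 of 21 genes (4.76%) was higher, the lactate carrier SLC16A1 (0.85), and 1 was lower, GPI (-0.70). These shares lay near or under those over all genes. The AMPK subunit PRKAB2 (0.66), the MYC-network factor MLX (0.85), the mitochondrial carrier SLC25A39 (0.73), the mitochondrial proteases HTRA2 (0.67) and OMA1 (0.61) and the interferon factor IRF9 (0.60) were higher. In their lists 3 of 19 AMPK, mTOR and FOXO genes (15.8%) and 1 of 8 MYC-network genes (12.5%) were higher. So were 1 of 29 mitochondrial carriers (3.45%) and 2 of 22 mitochondrial chaperones and proteases (9.09%). HTRA2 was the 1 higher gene of 16 in the BCL2 and apoptosis list (6.25%). IRF9 was the 1 of 20 interferon genes (5.00%), all beside 8.32% over all genes. The rise of OMA1 was 0.03 in wells 1 to 48 and 1.11 in wells 49 to 96. Actin genes were lower by share of RNA in 4 of 35, namely TPM3, VIM, ACTN1 and MYL12B, by -0.70, -0.70, -0.64 and -0.60, and 17 were lower against the spike-in. ACTN1 differed by only -0.25 in wells 49 to 96. By share of RNA none of 12 RNA polymerase II subunits, 5 NF-κB genes or 4 prostaglandin genes passed the limit, with the widest differences in POLR2B (-0.58) and POLR2H (0.52), RELA (0.46) and NFKBIA (0.44), and PTGES3 (-0.39) and PTGES2 (0.17). Against the spike-in 6 (50.0%), 1 (20.0%) and 2 (50.0%) of these genes were lower, beside 20.4% over all genes. Among them were POLR2B (-1.10) and PTGES3 (-1.17). Of the blood markers LYZ differed by 0.03 and of the stromal markers COL3A1 and COL1A2 by -0.13 and -0.09. LUM, a stromal marker named after its values were seen, was under the detection limit of 30% in both groups.

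The control means were set beside those of the genes past the limit. These genes were selected by the difference between the times, and the control cells are a separate group without a time. The counts therefore describe where the means lay and not when a gene moved. Such counts over all genes are not given. Among the 761 genes higher at 16 h by share of RNA, the control mean was nearer the 2 h mean in 423 (55.6%) and nearer the 16 h mean in 338 (44.4%). At 2 h 226 of the 761 lay past the limit under control, and 210 of these were within the limit of control at 16 h, as with CHCHD4. By contrast 265 were within the limit at 2 h and past it above control at 16 h, as with MAT2A, and 24 were past it above control at both times, as with DDIT4 and TRIB3. Among the 377 genes lower at 16 h the control mean was nearer the 2 h mean in 293 (77.7%). Of these 377, 180 were within the limit of control at 2 h and past it below control at 16 h, as with DDX46. Another 39 were past it below control at both times, and 36 were past it above control at 2 h and within it at 16 h.

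The genes past the limit were also described by their structure. The canonical transcripts of 9081 protein-coding genes were taken from GENCODE version 44 on hg38. Higher genes had a median of 6 exons and 9965 intron bases, and genes within the limit had 10 exons and 27795 intron bases. Lower genes had 8 exons and 13854 intron bases. Of 138 single-exon genes 16.7% were higher and none was lower. Their median level was 0.79, and up to a level of 1 0.539% of protein-coding genes were lower. The share that was higher went from 17.2% with 2 exons to 1.75% with over 20 exons, and it was 23.5% in genes with up to 2000 intron bases and 2.55% above 100000. By contrast, transcripts of up to 600 bases were lower in 21.6% and higher in 3.38%, and transcripts of over 4000 bases were lower in 2.07%. Genes of few exons differ in level from genes of many, and a gene near 0 cannot pass the limit downwards. Among genes with a mean same-total E between 2 and 5, 47.3% of 91 genes with up to 2 exons were higher, beside 11.5% of 1168 genes with over 8 exons, and the lower shares were 4.40% and 7.19%. The GC content of the transcript had a median of 49.3% in higher, 45.1% in lower and 46.6% in other genes. Genes share sequence features with their families, so these shares are a description. Of the 148 genes with transcripts of up to 600 bases, 47 (31.8%) were cytosolic or mitochondrial ribosomal proteins or respiratory chain subunits, as were 16 of the 32 that were lower, and 15.8% of the other short transcripts were lower.

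**Figure D5:**
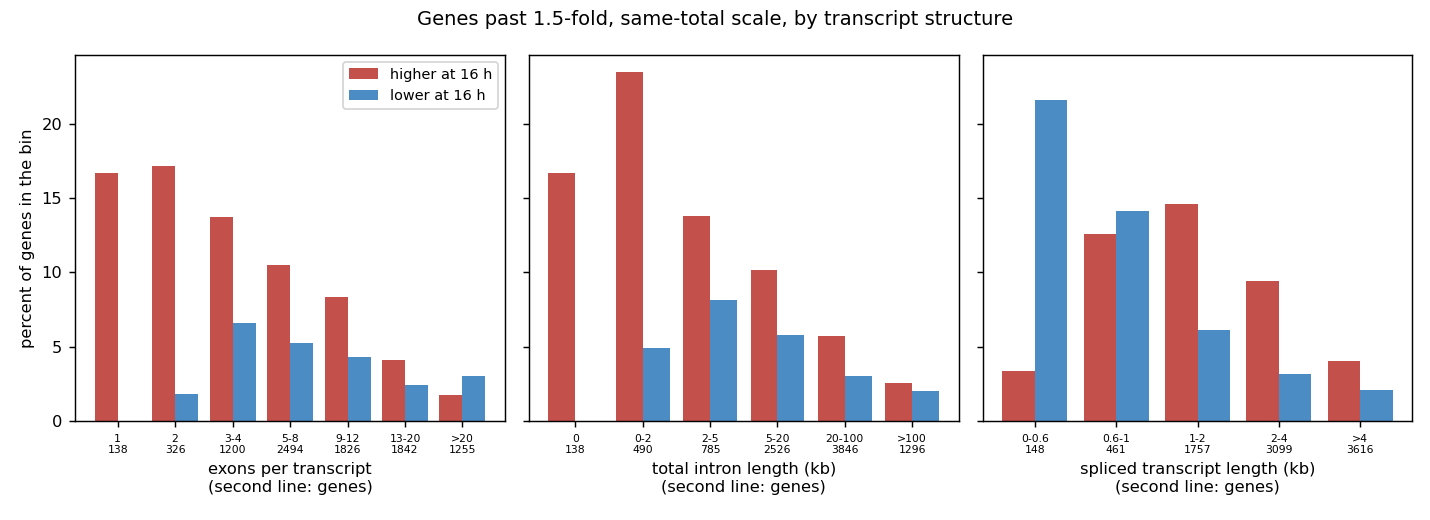
Percent of protein-coding genes that were higher or lower at 16 h on the same-total scale, by exons per transcript, total intron length and spliced length, with the number of genes per bin on the second line of the axis. The share of higher genes declines from 17.2% at 2 exons to 1.75% above 20 exons, and the share of lower genes is greatest, 21.6%, in the shortest transcripts.

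The spread over cells was described in 1923 genes that at least 90% of both the 2 h and the 16 h cells detected. The median SD of the same-total E was 0.99 at 2 h and 1.03 at 16 h, and 37.4% of these genes had a lower SD at 16 h. MAT2A was a gene of the opposite kind, whose SD went from 1.27 to 0.74, while RPL22L1 went from 0.75 to 1.65 and STMN1 from 0.80 to 1.41.

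In the 59 cells given celecoxib and paclitaxel together for 16 h, the same-total means of the leading genes were nearer to the 2 h celecoxib cells for MAT2A (3.07), GDF15 (1.70), COX6C (8.12) and RPL22L1 (4.82), whereas DDX46 (1.12) was nearer to the 16 h celecoxib cells. HSPA5 (5.06) lay between both. These are means of 1 C1 run each.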

How the data were processed

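Single A2780 cells were profiled by full-length Smart-seq2 on the Fluidigm C1 system. Per the submitters' processing notes and the methods, reads were trimmed by Trim Galore, Bowtie2 mapped them to the hg38 transcripts of GENCODE release 28 plus 3 spike-in RNAs, and RSEM 1.3.0 gave TPM values. The authors divided each TPM by that of the highest spike-in RNA of the cell, and removed cells with few housekeeping genes. The deposited values are log2 values, E, of N/10 with 1 added, and a difference understates the change of weakly expressed genes. RSEM divides reads between overlapping and near-identical genes by likelihood, and the libraries do not mark strand. Read depth per cell is not known and is described by the genes detected. Doublets were not called, for lack of counts. Spike-in RNAs, genes of the mitochondrial DNA, PTGS1 and PTGS2 were not analysed here. A few of the named genes are not reported here.

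Groups came from the labels. Of 66 cells listed at 2 h, 3 had been removed, and of 67 listed at 16 h, 6. N was recovered from E, and for the same-total scale each cell was rescaled to the median total of all 338 cells. A gene was counted when its mean E differed by over log2 of 1.5, among genes with E above 0 in over 30% of the cells of either time. The named genes were the 12 largest rises and 12 largest falls on the same-total scale and the 6 largest rises on the deposited scale, each detected in at least 50% of the cells where it was higher, up to 4 genes past the limit (otherwise 2) from each of 41 gene lists, and 13 genes that define pathways. The S and G2/M lists are those of Seurat. The comparison, the lists and the named genes were chosen with earlier results of these data known. Exact Clopper-Pearson intervals are at 95%. Alternatives were the ratio of linear means, a pseudocount of 1, no filter, a 50% filter, other scalings, and subsets of cells by genes detected, total and C1 well. Gene structure and coordinates are from GENCODE version 44, matched for 9632 genes. The steps were tested on simulated data. The tools were Python 3.11.15 with matplotlib 3.10.9, scipy 1.17.1, pandas 2.3.3 and numpy 2.4.6.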

Additional observations from a re-analysis of the deposited data

How the results depend on the processing

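No paired analysis was possible because each time is 1 sample and no test was made. Against the spike-in, the 51 higher and 1868 lower genes became 467 and 3384 with a pseudocount of 1, and the lower genes became 2841 by the ratio of linear means. The higher genes became 109 in cells of a shared range of genes detected and 104 without the 5 highest and 5 lowest cells. In wells 1 to 48 alone 33 were higher and 3393 lower, and in wells 49 to 96 alone 345 and 1176, with median totals that differed by -1.184 and -0.3625. By share of RNA, the 761 higher and 377 lower genes became 1787 and 1158 with a pseudocount of 1, the lower genes became 628 in wells 1 to 48, and the higher genes became 1263 in wells 49 to 96. A shared range of totals, chosen after seeing the data, held 23 and 19 cells. In these 1695 genes were higher and 350 lower against the spike-in and 2116 were higher by share of RNA. The medians over all genes there were 0.156 against the spike-in and 0.195 by share of RNA. In those cells the same-total difference turned positive for UBE2T (0.2736), RRM2 (0.1753), AURKB (0.1943), NUSAP1 (0.7565), SMC4 (0.8687), ACAT2 (0.4364), ATG3 (0.5525), ACTN1 (0.2686) and HMGB2 (0.2908), and ACAT2 was also positive in wells 49 to 96 (0.2833). The cause was not tested. Of 125 named genes past the limit by share of RNA, 72 passed it in the same direction under each of the 8 settings tried for single genes. The median of the stress response list ran from 0.278 to 0.5386, that of cytosolic ribosomal proteins from -0.5027 to -0.4358, that of complexes II to V from -0.5065 to -0.35, that of S phase genes from -0.6655 to 0.3937 and that of G2 and M genes from -0.5307 to 0.7234. With 1 C1 run per time, no difference can be set against the spread between cultures.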
